A study of Mus musculus with 72 samples.

Results

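Gastrocnemius muscle of 10-week-old wild-type (WT) and *Bmal1*-knockout (*Bmal1*-KO) mice was compared by RNA-Seq. The libraries were those labeled WT or KO, gastrocnemius, and 10 weeks, 6 of each genotype, which makes 12 of the 72 libraries of the series. BMAL1 is encoded by the gene that the files call *Arntl*. The KO mice carried the deletion on both alleles in every tissue, came from heterozygous parents, and had WT littermates as controls, and all 12 libraries came from males with no viral vector named in their labels. Muscle was collected at ZT1, soon after lights on. Effects of losing BMAL1 in muscle and in other organs cannot be told apart in mice of this kind, and a lower daily mean and a shifted peak cannot be told apart at a single time of day. The labels do not say that each library is a separate mouse, so *P* values measure the spread between these libraries.

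BMAL1 pairs with CLOCK or NPAS2 and binds E-box sequences in DNA, where it drives the genes of its own repressors, the period and cryptochrome proteins. The REV-ERB and ROR nuclear receptors act on the *Arntl* promoter in a second loop, and the PAR bZIP factors DBP, TEF, and HLF carry the rhythm to D-box sequences in output genes. In skeletal muscle the clock is known for setting the timing of glucose uptake, fuel choice, and genes of the sarcomere.

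Values are normalized counts, the reads counted on a gene divided by 1 size factor per library. They were recovered as whole reads at all values (within 0.01 of a read), with 33645956 to 41733282 reads on genes in the 6 libraries sequenced at ICBR (3 WT and 3 KO) and 10076827 to 11655532 in the 6 sequenced at Novogene (3 WT and 3 KO). Site separated the libraries on the first principal component (76.4% of variance) and genotype on the second (7.04%), so site was a covariate of each test. Of the genes tested, 1333 differed between sites by more than 3 on the log2 scale, and 1283 of these (96.2%) overlap a gene on the other strand, against 43.4% of other genes. Whether the counting used the strand is not stated in the sources used here, so values of genes that overlap another on the opposite strand are uncertain. These 1333 genes held 42 of the genes called below (1.94%). Of the genes named as called below, *Bhlhe41*, *Dbp*, *Cacna1s*, *Fabp3*, *Mpc1*, *Gadd45a*, *Cdkn1c*, *Knop1*, *Prss23*, *Hspb2*, and *Mybph* share from 18.0% to 49.9% of their exon length with a gene on the other strand. All 8 skeletal muscle markers, *Acta1*, *Ckm*, and *Myh4* among them, were measured, and none was called by limma (median log2 fold change 0.031; 1 had an unadjusted *P* under 0.05, and edgeR and DESeq2 each called 1). Most markers of hepatocytes, neutrophils, T cells, B and plasma cells, and cardiomyocytes lay below the filter of a mean normalized count above 5, with 1 of 6, 1 of 6, 1 of 7, 2 of 8, and 2 of 6 above it. Of these 7 genes, limma called none, 2 had an unadjusted *P* under 0.05, edgeR called none, and DESeq2 called 1 cardiomyocyte marker lower. With 1 library left out, limma called 1 cardiomyocyte marker lower (without WT replicate 4 or 7 or KO replicate 3) and 1 B and plasma cell marker higher (without WT replicate 6).

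*Arntl* (chr7:113207465-113314126 of GRCm38) had 402 to 634 (median 527) normalized counts in WT and 196 to 296 (median 236) in KO muscle. Every KO library lay below every WT library. The log2 fold change, the difference of KO minus WT in the mean of log2(normalized count + 1) adjusted for site, was -1.14 (SE 0.13, adjusted *P* = 6.85e-05), and an exact permutation test within sites gave *P* = 0.005, two-sided, the smallest that 400 arrangements allow. These counts cover the whole gene, including exons outside the deleted part, so they do not measure the deletion itself. Single values in parentheses after a gene below are log2 fold changes of this kind, given with SE and the adjusted *P* of limma where the gene is described in full, and ranges are over the 6 libraries of a genotype.

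Of 15939 genes with a mean normalized count above 5, 2170 (13.6%) were called, that is, had a limma *P* value under 0.05 after Benjamini-Hochberg adjustment. There were 1035 genes higher (6.49%) and 1135 lower (7.12%) in KO muscle. Shares of the gene lists below are to be set beside these shares of all genes tested. The lists were written with earlier results of these data known, so their shares describe the members and are no test of a list. At the study's rule for DEGs, an unadjusted *P* under 0.01, there were 2440 (15.3%), 1182 higher and 1258 lower. Groups without overlap between the 6 WT and 6 KO values were found for 983 genes (6.17%), and 941 of these were called. The changes were modest for most genes, with a median log2 fold change of 0.51 in the higher and -0.59 in the lower genes, and 0.0067 over all genes tested. Changes of 2-fold or more were found in 201 higher and 316 lower genes, and of these, 107 and 203 had no overlap. Protein-coding genes made up 90.8% of the higher and 90.6% of the lower genes, against 82.1% of all genes tested.

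**Figure D1:**
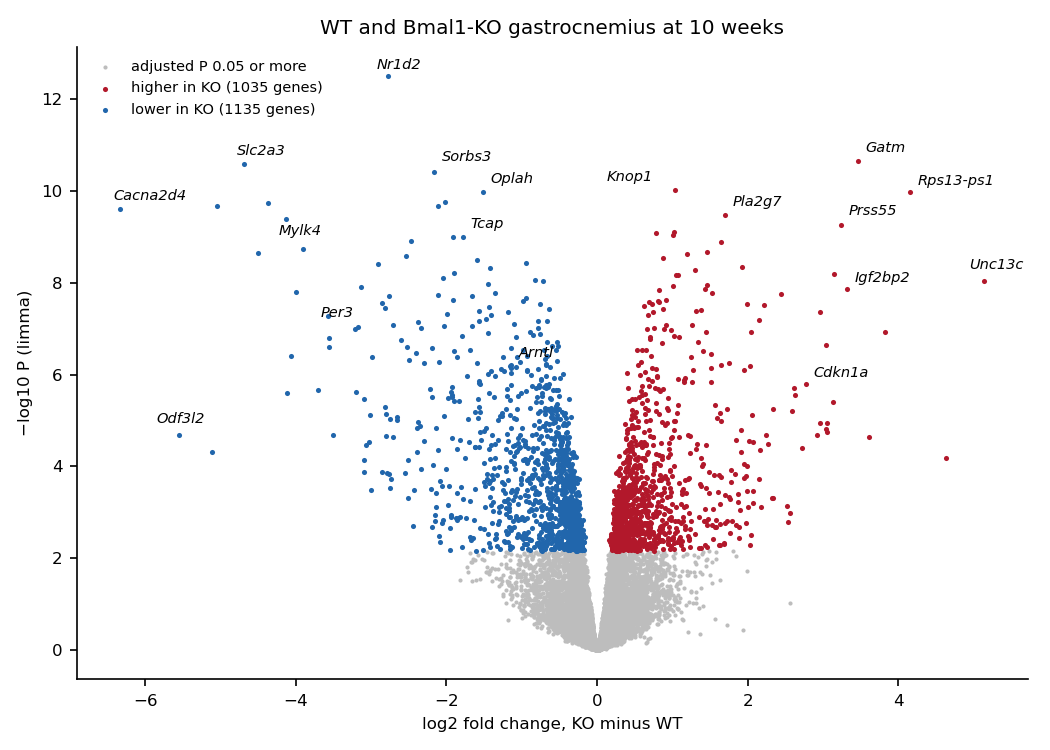
Each point is 1 of 15939 genes, with the log2 fold change of KO minus WT on the horizontal axis and −log10 of the limma *P* value on the vertical axis; red marks the 1035 genes called higher, blue the 1135 called lower, and gray the rest. *Nr1d2* has the smallest *P* value, *Cacna2d4* lies farthest to the left at -6.33, and *Unc13c* farthest to the right at 5.14.

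The clock genes changed in both directions in KO muscle. The REV-ERB receptors, the PAR bZIP factors, and 4 of the 8 E-box repressors measured (50%) were lower, and the partners of BMAL1 and *Cry1* were higher. Among the 4 activators, *Clock* and *Npas2* rose, *Arntl* fell, and its paralog *Arntl2* was not called. *Npas2* had 30.3 to 64.3 (median 36.7) normalized counts in WT and 131 to 183 (median 165) in KO muscle, and *Clock* had 667 to 858 (median 767) and 1048 to 1648 (median 1213). Neither gene overlapped between genotypes, and their log2 fold changes were 1.99 (SE 0.18, adjusted *P* = 6.92e-06) and 0.69 (SE 0.11, adjusted *P* = 0.000664).

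*Nr1d1* and *Nr1d2* encode REV-ERBα and REV-ERBβ, which repress *Arntl*. *Nr1d2* had 1421 to 1953 (median 1773) normalized counts in WT and 199.96 to 305 (median 249) in KO muscle, the smallest *P* value of all genes tested (log2 fold change -2.78, SE 0.10, adjusted *P* = 5.04e-09). *Nr1d1* had 1208 to 3591 (median 2366) normalized counts in WT and 351 to 949 (median 566) in KO muscle (log2 fold change -1.91, SE 0.13, adjusted *P* = 8.1e-07). Both groups of values stayed apart in both genes. *Rora*, whose product opposes the REV-ERBs at the same DNA element, fell from a median of 1969 (range 1483 to 2193) to 1173 (range 936 to 1455) normalized counts (-0.69, adjusted *P* = 0.00188).

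The PAR bZIP genes fell in KO muscle. *Dbp* had 193 to 839 (median 608) normalized counts in WT and 103 to 119 (median 115) in KO muscle (-2.2, SE 0.23, adjusted *P* = 3.23e-05). The 6 KO values of *Dbp* lay within a narrow band below the lowest WT value, while the WT values were spread. *Hlf* fell from a median of 243 (range 184 to 309) to 38.3 (range 16.5 to 48.6) normalized counts (-2.77, SE 0.24, adjusted *P* = 5.7e-06) and *Tef* from a median of 4425 (range 3318 to 5337) to 2668 (range 2421 to 3298) (-0.68, SE 0.085, adjusted *P* = 0.000141), again with no overlap. *Nfil3*, which encodes a repressor acting at the same D-box sequence, had 345 to 1193 (median 405) normalized counts in WT and 812 to 1143 (median 1021) in KO muscle. Its call as higher (0.95, adjusted *P* = 0.0261) was not made by edgeR (adjusted *P* = 0.063) or DESeq2 (adjusted *P* = 0.064) and was lost without WT replicate 2, 3, 5, or 7 or KO replicate 1, 2, 6, or 7 (adjusted *P* up to 0.063).

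Of the repressors that BMAL1 drives, *Per3* changed the most. It had 147 to 306 (median 230.3) normalized counts in WT and 8.41 to 40.8 (median 28) in KO muscle, with no overlap (-3.18, SE 0.31, adjusted *P* = 1.5e-05). *Bhlhe40* and *Bhlhe41* encode DEC1 and DEC2, repressors that compete for the E-box. *Bhlhe40* fell from a median of 1359 (range 896 to 2073) to 498 (range 436 to 633) normalized counts (-1.48, SE 0.14, adjusted *P* = 1.17e-05) and *Bhlhe41* from a median of 1466 (range 863 to 2042) to 817 (range 524 to 1060.3) (-0.87, SE 0.21, adjusted *P* = 0.0121), the former without overlap and the latter with it. *Ciart*, which encodes the repressor CHRONO, had 16.2 to 59 (median 27.2) normalized counts in WT and 1.13 to 26.9 (median 4.14) in KO muscle (-2.15, SE 0.52, adjusted *P* = 0.0143), with 2 Novogene KO libraries inside the WT range. *Cry1* rose from a median of 329 (range 297 to 417) to 525 (range 459 to 596) normalized counts (0.64, SE 0.082, adjusted *P* = 0.000173) and its groups did not overlap. *Per1* had 204 to 1260.4 (median 355) normalized counts in WT and 135 to 463 (median 188) in KO muscle, so its WT libraries varied over a wide range and the difference of -1.02 did not pass the test (adjusted *P* = 0.166). *Per2* (-0.36, adjusted *P* = 0.175) and *Cry2* (0.089, adjusted *P* = 0.744) did not pass it either.

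Of 6 genes measured for kinases and ubiquitin ligases of the clock, 1 was higher (16.7%) and 3 were lower (50%). *Usp2*, which encodes a deubiquitinase of clock proteins, fell from a median of 2277 (range 1684 to 2648) to 1399 (range 1230.2 to 1671) normalized counts (-0.62, SE 0.10, adjusted *P* = 0.000657) with no overlap. *Btrc* (β-TrCP, which marks period proteins for degradation) was higher at 0.29 on the log2 scale. *Csnk1e*, a casein kinase of the period proteins, was lower at -0.42, a call lost without WT replicate 2, 3, or 6 or KO replicate 1 or 2 (adjusted *P* up to 0.054). *Csnk1d* (-0.078) and *Gsk3b* (-0.03) were not called.

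**Figure D2:**
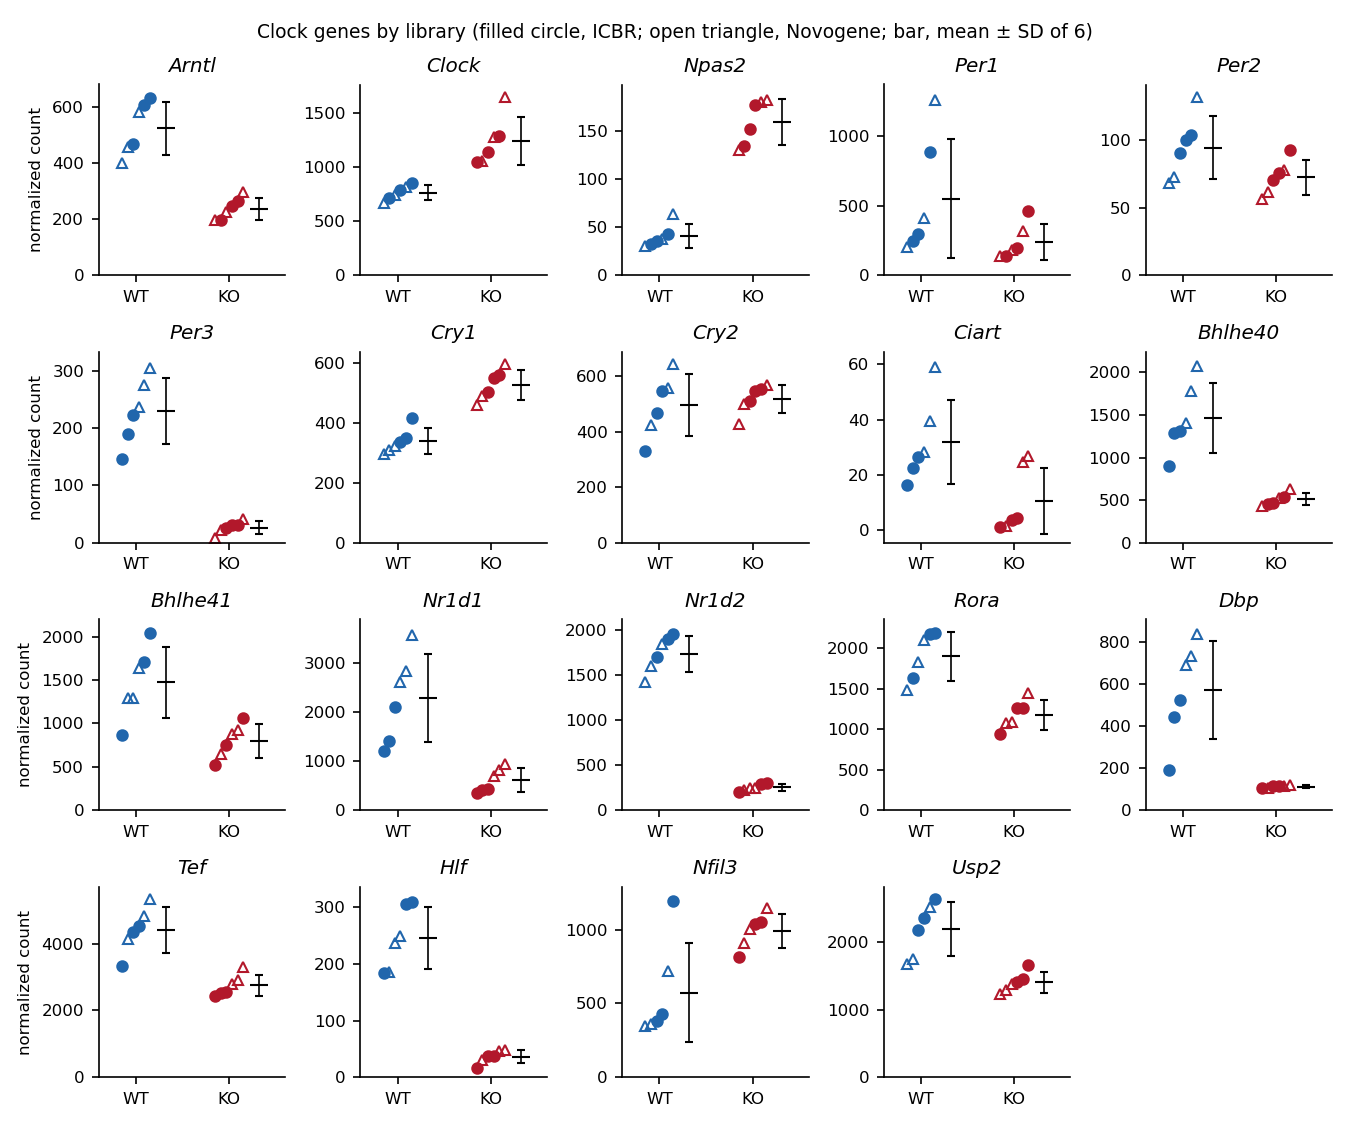
Normalized counts of 19 clock genes in each of the 12 libraries, on linear axes; filled circles are ICBR and open triangles Novogene libraries, and bars give the mean ± SD of 6. The WT and KO points separate for *Arntl*, *Clock*, *Npas2*, *Per3*, *Cry1*, *Bhlhe40*, *Nr1d1*, *Nr1d2*, *Rora*, *Dbp*, *Tef*, *Hlf*, and *Usp2*, and overlap for *Per1*, *Per2*, *Cry2*, *Ciart*, *Bhlhe41*, and *Nfil3*.

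RefSeq promoter windows of GRCm38.p6, from 250 bases before to 50 after each start, were matched by symbol to 10979 of the 15939 genes tested. The 250 bases upstream of 5 called genes, chosen after their values were seen, are shown because they hold a canonical E-box (CACGTG, its own reverse complement) or a D-box (TTACGTAA or TTATGTAA, on either strand). All lie on the minus strand and read 5′ to 3′ toward the start, with the motif in capitals. They are *Ciart* (chr3:95882229-95882478, with E-boxes that begin 116, 58, and 44 bases before the start), *Bhlhe41* (chr6:145865421-145865670, 153 bases before), *Fbp2* (chr13:62858401-62858650, 42 bases before), *Cry1* (chr10:85185055-85185304, 60 bases before), and *Per3* (chr4:151044666-151044915, with D-boxes 205 and 158 bases before).
Ciart: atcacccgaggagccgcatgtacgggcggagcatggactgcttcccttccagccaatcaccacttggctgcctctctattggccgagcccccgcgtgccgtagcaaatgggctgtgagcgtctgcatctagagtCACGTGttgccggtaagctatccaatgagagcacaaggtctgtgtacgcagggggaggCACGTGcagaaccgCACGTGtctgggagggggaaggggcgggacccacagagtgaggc
Bhlhe41: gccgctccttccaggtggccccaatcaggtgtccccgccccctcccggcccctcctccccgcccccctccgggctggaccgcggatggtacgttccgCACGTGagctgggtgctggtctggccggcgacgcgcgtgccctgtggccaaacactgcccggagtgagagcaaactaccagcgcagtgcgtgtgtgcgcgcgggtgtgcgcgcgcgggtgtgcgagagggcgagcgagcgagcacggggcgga
Fbp2: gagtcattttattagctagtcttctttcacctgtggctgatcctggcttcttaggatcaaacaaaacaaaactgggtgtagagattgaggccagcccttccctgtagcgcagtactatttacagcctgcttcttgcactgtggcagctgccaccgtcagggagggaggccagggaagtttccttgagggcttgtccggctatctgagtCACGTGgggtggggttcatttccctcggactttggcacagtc
Cry1: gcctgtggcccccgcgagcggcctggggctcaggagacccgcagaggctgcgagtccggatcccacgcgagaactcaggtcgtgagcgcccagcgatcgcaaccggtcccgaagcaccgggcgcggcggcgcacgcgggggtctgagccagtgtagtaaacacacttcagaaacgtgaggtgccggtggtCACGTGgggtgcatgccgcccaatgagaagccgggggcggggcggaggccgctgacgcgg
Per3: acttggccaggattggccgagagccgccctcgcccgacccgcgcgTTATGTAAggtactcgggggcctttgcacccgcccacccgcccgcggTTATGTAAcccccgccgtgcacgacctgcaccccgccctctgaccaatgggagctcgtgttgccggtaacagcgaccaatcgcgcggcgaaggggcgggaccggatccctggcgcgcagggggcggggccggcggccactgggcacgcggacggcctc

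Of these genes, *Ciart*, *Bhlhe41*, *Fbp2*, and *Per3* were lower and *Cry1* was higher in KO muscle, so windows with the E-box occurred among genes of both directions. Over all windows, an E-box was found for 2187 of 27025 genes of the table (8.09%), 1254 of the 10979 genes tested (11.4%), 106 of 829 lower (12.8%), 96 of 773 higher (12.4%), and 1052 of 9377 not called (11.2%). Among genes that changed by 2-fold or more without overlap, 21 of 134 lower (15.7%) and 7 of 83 higher (8.43%) had one. Genes called lower had 1.37 windows on average and genes not called 1.27, which gives the former more sequence to match. A D-box was found for 333 genes of the table (1.23%), 17 of the lower (2.05%), 5 of the higher (0.647%), and 68 of those not called (0.725%). The REV-ERB/ROR element was found for 124 (0.459%), 2 (0.241%), 1 (0.129%), and 20 (0.213%), and motifs of different kinds overlapped in at most 2 of 32851 windows. These shares are descriptions of the letters in the windows, with no test.

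Genes of calcium handling and of the sarcomere included some of the largest changes. Of 27 genes for calcium channels and excitation-contraction coupling, 6 were higher (22.2%) and 2 lower (7.41%, near the 7.12% of all genes tested). Their median log2 fold change was 0.16. *Cacna2d4*, which encodes an auxiliary subunit of voltage-gated calcium channels, had 203 to 450.5 (median 368) normalized counts in WT and 0 to 5.4 (median 4.88) in KO muscle. Every KO library lay far below the lowest WT library, and its log2 fold change of -6.33 (SE 0.38, adjusted *P* = 3.38e-07) was the largest decrease of all genes called. Its relative *Cacna2d3* was also lower (-1.49, adjusted *P* = 0.0107). The pore-forming subunit gene *Cacna1s* (0.46) and the β-subunit gene *Cacnb1* (0.37) were higher, with no overlap in either, as was *Stim1*, the sensor of calcium in the sarcoplasmic reticulum (0.51).

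The other 3 genes of the list that were higher act in the sarcoplasmic reticulum, and 19 of the 27 genes were not called. *Casq2*, the calsequestrin of slow and cardiac muscle, rose from a median of 259 (range 176 to 509) to 1912 (range 699 to 2928) normalized counts (2.63, SE 0.34, adjusted *P* = 0.000185). *Sln* (sarcolipin) and *Mrln* (myoregulin) encode small peptides that inhibit the calcium pump SERCA. *Sln* rose from a median of 11 (range 6.06 to 19.7) to 67.7 (range 22.9 to 96.8) normalized counts (2.26, SE 0.37, adjusted *P* = 0.00109) and *Mrln* from a median of 579.6 (range 424 to 813) to 1566 (range 934 to 1862) (1.3, SE 0.10, adjusted *P* = 2.45e-06). The WT and KO libraries did not overlap for any of these 3 genes.

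Of 27 genes for the sarcomere, thin filament, and Z-disc, 3 were higher (11.1%) and 5 lower (18.5%), with a median of 0.070. The number higher was 1 without KO replicate 1, 2, or 7 and 5 without KO replicate 6. *Mylk4*, a gene of the myosin light chain kinase family, fell from a median of 30787 (range 23639 to 39225) to 1924 (range 982 to 2845) normalized counts (-4.14, SE 0.26, adjusted *P* = 4.63e-07). *Tcap* encodes telethonin, the cap of titin at the Z-disc, and fell from a median of 29714 (range 28271 to 32420.5) to 8629.5 (range 7094 to 12729.9) normalized counts (-1.79, SE 0.12, adjusted *P* = 8.1e-07). Both genes had KO values far below the lowest WT value. *Mylk2*, the myosin light chain kinase of skeletal muscle (-0.85), *Myoz1* (calsarcin-2 at the Z-disc, -0.59), and the actin nucleator gene *Lmod1* (-0.93) were also lower. *Mybph*, the gene for myosin-binding protein H, had 238 to 3359 (median 1795) normalized counts in WT and 7345 to 18740 (median 11222) in KO muscle (3.06, SE 0.45, adjusted *P* = 0.000497), and 49.9% of its exon length overlaps *Adora1* on the other strand. *Ankrd1*, a stretch-responsive ankyrin repeat gene, rose from a median of 89.7 (range 48.1 to 158) to 299.7 (range 192 to 355) normalized counts (1.65, SE 0.24, adjusted *P* = 0.000472).

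No fiber-type gene passed the test. None of 8 myosin heavy chain genes, 8 slow fiber isoforms, or 11 fast fiber isoforms was called by limma, where 0, 0, and 1 of them had an unadjusted *P* under 0.05, and edgeR and DESeq2 each called 1 fast isoform and none of the others. The median log2 fold change of the slow isoforms was 1.32, but 2.28 in the ICBR and 0.37 in the Novogene libraries. *Myh7*, the slow myosin, had 6.57 to 4943 (median 368) normalized counts in WT and 12.3 to 20761 (median 4714) in KO muscle, so it varied widely within each genotype. Per kilobase, *Myh4* (type IIB) made up 91.9% ± 5.67 of the 4 adult myosin heavy chains in WT and 88.8% ± 5.74 in KO muscle (SD, n = 6 each, exact permutation *P* = 0.37, two-sided). The other shares were 4.82% and 6.79% for *Myh1* (*P* = 0.315), 3.19% and 3.94% for *Myh2* (*P* = 0.615), and 0.0897% and 0.514% for *Myh7* (*P* = 0.14, all exact permutation tests). The groups overlapped for all 4 shares, and *P* values were not adjusted over them.

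Among genes listed for glucose uptake, insulin signaling, glycolysis, and glycogen, more were lower than higher. Of 18 genes for glucose uptake and insulin signaling, 3 were higher (16.7%) and 6 lower (33.3%). *Slc2a3* encodes the glucose transporter GLUT3 and fell from a median of 294 (range 155 to 421) to 9.46 (range 6.28 to 13.9) normalized counts (-4.69, SE 0.24, adjusted *P* = 1.41e-07). *Tbc1d1*, a Rab GTPase-activating protein that governs GLUT4 traffic, fell from a median of 1433 (range 940.2 to 1515) to 126 (range 89.8 to 353) (-3.14, SE 0.26, adjusted *P* = 4.33e-06), and its highest KO value was KO replicate 3. Neither gene's groups overlapped. *Slc2a4*, the GLUT4 gene, fell by less, from a median of 8831 (range 8199 to 9449) to 6715 (range 6445 to 7768) normalized counts (-0.35, adjusted *P* = 0.00151), and so did *Hk2*, the hexokinase of muscle (-0.58), the Rab gene *Rab10* (-0.39), and the transporter gene *Slc2a12* (-0.40). *Grb10*, an imprinted inhibitor of insulin and IGF1 receptors, rose from a median of 658 (range 521 to 712) to 1306 (range 1184 to 1447) normalized counts (1.07, SE 0.084, adjusted *P* = 2.92e-06). *Tbc1d4* (0.61), the relative of *Tbc1d1*, and *Insr*, the insulin receptor gene (0.31), were higher.

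Of 28 genes for glycolysis and glycogen, none was higher and 8 were lower (28.6%, against 7.12% of all genes tested), with a median of -0.22. The number lower was 5 when WT replicate 3 or KO replicate 1 or 3 was left out. *Fbp2*, whose product is the fructose bisphosphatase of muscle, fell from a median of 581 (range 420.4 to 681) to 172 (range 104 to 273) normalized counts (-1.73, SE 0.21, adjusted *P* = 8.99e-05). *Pfkm*, the muscle phosphofructokinase gene, fell from a median of 59864 (range 57632 to 77633) to 37105 (range 26114 to 38680) (-0.87, SE 0.11, adjusted *P* = 0.000134) and *Phka1*, a phosphorylase kinase subunit gene, from a median of 18574 (range 15304 to 26658) to 11474 (range 7645 to 13127) (-0.85, SE 0.14, adjusted *P* = 0.00128). In each of these 3 genes the 6 KO values lay below the 6 WT values. *Pgm1* (phosphoglucomutase, -0.52) was lower with a smaller change. Downstream, *Mpc1*, a subunit gene of the mitochondrial pyruvate carrier, fell from a median of 1734 (range 1574 to 2053) to 1113 (range 837 to 1209) normalized counts (-0.71, SE 0.089, adjusted *P* = 0.000136), though 23.1% of its exon length overlaps a gene on the other strand. *Pcx* (pyruvate carboxylase) fell from a median of 1912 (range 1606 to 3175) to 1003 (range 945 to 1246) (-1.02, SE 0.11, adjusted *P* = 5.44e-05). *Pdk4*, which switches pyruvate dehydrogenase off, had 2652 to 12178 (median 4072) normalized counts in WT and 2419 to 14995 (median 9284) in KO muscle and was not called (0.64, adjusted *P* = 0.407).

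Among genes of fatty acid use, more were higher than lower. Of 30 genes for fatty acid uptake and oxidation, 13 were higher (43.3%, against 6.49% of all genes tested) and 1 lower (3.33%, against 7.12%), with a median of 0.47, and leaving out any single library gave 12 to 16 higher and 1 lower. *Fabp3*, a carrier of fatty acids in the cytosol, had 2426 to 8227 (median 3309) normalized counts in WT and 6524 to 19998 (median 12646) in KO muscle, with partial overlap (1.62, SE 0.31, adjusted *P* = 0.00344). *Acadm*, the medium-chain acyl-CoA dehydrogenase gene, rose from a median of 4230.4 (range 3094 to 5747) to 7773 (range 6095 to 8498) (0.80, SE 0.14, adjusted *P* = 0.00219) and *Cpt2*, which completes fatty acid import into mitochondria, from a median of 905 (range 812 to 1076) to 1373 (range 1077 to 1481) (0.53, SE 0.10, adjusted *P* = 0.00254), both without overlap. *Slc27a1* (0.68) and *Acsl1* (0.67), for fatty acid transport and activation, and *Eci1* (0.64), for β-oxidation, were higher as well. The exception was *Acsl6*, another acyl-CoA synthetase gene (-0.48).

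Of 26 genes for phospholipids, desaturases, and lipid storage, 7 were higher (26.9%) and none lower. With 1 library left out, 5 to 8 were higher, and 1 was lower without WT replicate 4 or KO replicate 6. *Plin5*, a coat protein of lipid droplets at mitochondria, rose from a median of 155 (range 107 to 464) to 728 (range 621 to 899) normalized counts (1.91, SE 0.29, adjusted *P* = 0.000666). *Pla2g7*, which encodes the platelet-activating factor acetylhydrolase, rose from a median of 893 (range 779 to 1172) to 2938 (range 2759 to 3564) (1.7, SE 0.11, adjusted *P* = 4.11e-07) and *Agpat3*, an acyltransferase of phospholipid synthesis, from a median of 2129.7 (range 1887 to 2338) to 3819.9 (range 3401 to 4109.8) (0.82, SE 0.069, adjusted *P* = 4.71e-06). No WT value of these 3 genes reached the lowest KO value. *Pnpla2*, the adipose triglyceride lipase gene, was higher with a smaller change (0.48, adjusted *P* = 0.0172). Of 16 PPAR and PGC-1 regulator genes, 2 were higher and 2 lower (12.5% each, median 0.056), with 0 to 2 higher and 2 to 3 lower when 1 library was left out. *Rxra*, a partner of the PPARs, was lower (-0.48, adjusted *P* = 0.0019).

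Among nuclear genes of the respiratory chain and the TCA cycle, those called were higher, apart from *Pcx*. Of 35 complex I subunit genes, 14 were higher (40.0%, against 6.49% of all genes tested), none was lower, and 21 were not called, with 33 of 35 log2 fold changes above 0 (median 0.24, range -0.41 to 0.44). Of 35 genes for complex III, complex IV, and ATP synthase, 20 were higher (57.1%), none was lower, and 15 were not called, with 34 above 0 (median 0.31). Examples are *Ndufb7* (0.40, adjusted *P* = 0.00533) and *Ndufv3* (0.34, adjusted *P* = 0.00388) of complex I, *Cox5a* (0.44, adjusted *P* = 0.00174) and *Cox8b* (0.38, adjusted *P* = 0.000885) of complex IV, and *Atp5h* (0.40, adjusted *P* = 0.0126) of ATP synthase. In each list, 2 genes had groups without overlap (5.71%), near the 6.17% of all genes tested. The 14 of complex I became 7 to 9 without WT replicate 2, 3, or 5 or KO replicate 1, 2, or 7, and the 20 of the other complexes became 9 to 13 without WT replicate 2, 3, or 5 or KO replicate 1, 2, 3, 5, or 7. A fit of 34 gastrocnemius libraries, from WT, KO, and KO mice given a *Bmal1* vector at 10 and 40 weeks, called 7 and 10.

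Of 19 TCA cycle genes, 7 were higher (36.8%), 11 were not called, and 1 was lower (*Pcx*, counted here as the enzyme that feeds the cycle), with 18 above 0 (median 0.28). Without WT replicate 2, 3, 5, or 6 or KO replicate 1, 2, 3, 5, or 7, the number higher was 2 to 4, and without WT replicate 4 or KO replicate 6 it was 12 and 13. *Sucla2*, the ATP-forming subunit gene of succinyl-CoA synthetase, stood apart with 6432 to 8621 (median 7604) normalized counts in WT and 13084 to 14733 (median 13224) in KO muscle (0.83, SE 0.073, adjusted *P* = 6.58e-06). Its partner subunit gene *Suclg1* was not called (0.20, adjusted *P* = 0.0924). *Sdhd* of complex II was higher (0.34, adjusted *P* = 0.0133). None of the 12 mitochondrially encoded genes measured was called by limma or edgeR, none had an unadjusted *P* under 0.05, 11 of 12 had log2 fold changes below 0 (median -0.22), and DESeq2 called 2 of them lower.

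**Figure D3:**
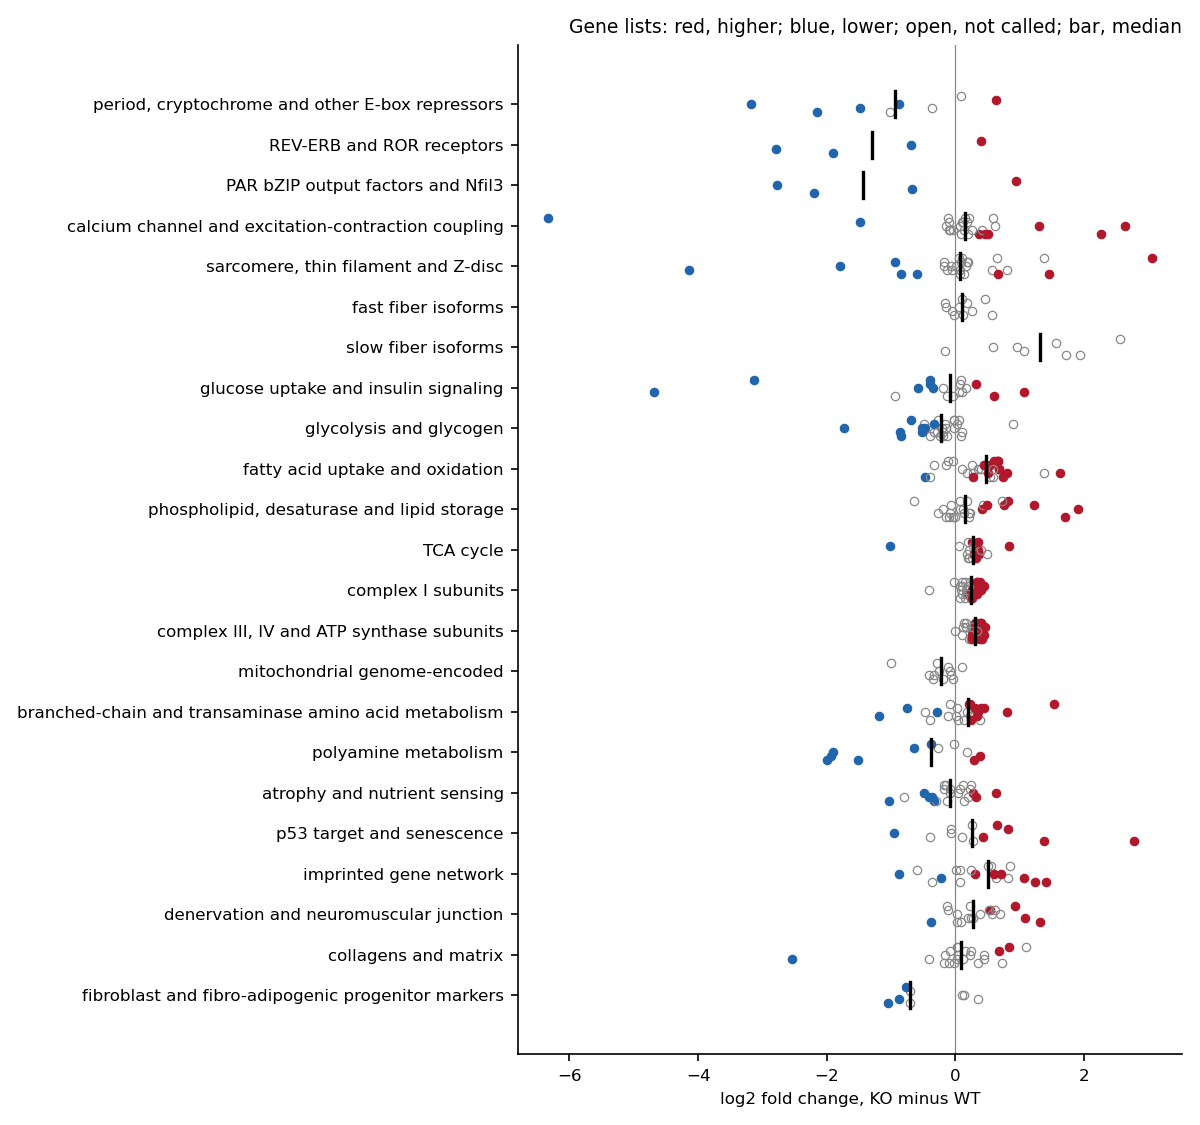
Log2 fold changes of KO minus WT for the members of 23 gene lists (1 point per gene; red, called higher; blue, called lower; open, not called; black bar, list median). Fatty acid, TCA cycle, and respiratory chain genes lie mostly to the right of 0, glycolysis and polyamine genes mostly to the left, and the fiber-type lists hold no called gene.

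Genes of creatine, amino acid, and polyamine metabolism included large changes. *Gatm* encodes the enzyme of the first step of creatine synthesis. It had 57.8 to 115 (median 81.1) normalized counts in WT and 681 to 1298 (median 900.3) in KO muscle (3.46, SE 0.17, adjusted *P* = 1.41e-07), and *Slc6a8*, the creatine transporter gene, rose from a median of 2509 (range 2134 to 2701) to 3282 (range 3046 to 3550.01) (0.42, SE 0.069, adjusted *P* = 0.00113). The 6 KO libraries lay above the 6 WT libraries for both. Of 24 genes for branched-chain and transaminase amino acid metabolism, 10 were higher (41.7%) and 3 lower (12.5%), with a median of 0.20. *Gpt*, an alanine transaminase gene, rose from a median of 352 (range 304 to 487) to 1077 (range 777 to 1436) normalized counts (1.53, SE 0.13, adjusted *P* = 5.08e-06), again without overlap. *Ivd* (0.40) and *Acad8* (0.31), of leucine and valine breakdown, were higher with smaller changes. *Glul*, the glutamine synthetase gene, fell from a median of 2608 (range 1964 to 3657) to 1139 (range 821 to 1571) (-1.19, SE 0.16, adjusted *P* = 0.000186).

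Of 11 polyamine genes, 6 were lower (54.5%) and 2 higher (18.2%), with a median of -0.39. *Odc1* encodes ornithine decarboxylase, the first enzyme of the pathway, and fell from a median of 3598 (range 2650.1 to 6427) to 960.2 (range 729.6 to 1418) normalized counts (-1.99, SE 0.18, adjusted *P* = 9.73e-06). *Amd1*, the *S*-adenosylmethionine decarboxylase gene, fell from a median of 33980.5 (range 27644 to 66887) to 10454 (range 6435 to 15476) (-1.93, SE 0.24, adjusted *P* = 0.000136). Its near-identical copy *Amd2* was called with it (-1.9), and reads could have been split between them. *Smox* (spermine oxidase) fell from a median of 14172 (range 7957 to 26739) to 4956 (range 3031 to 8672) (-1.51, SE 0.27, adjusted *P* = 0.00221) with some overlap, and *Azin2* (-0.65), an antizyme inhibitor gene, was lower too. The genes higher were *Sat1* (0.39), whose product acetylates polyamines for export and breakdown, and *Oaz2* (0.29), an antizyme gene.

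*Mstn* (myostatin, which limits muscle mass) fell from a median of 1469 (range 1202 to 2088) to 734 (range 557 to 1140.4) normalized counts (-1.03, SE 0.17, adjusted *P* = 0.0012) and *Igf1*, which promotes growth, from a median of 548 (range 422 to 1127) to 294 (range 157 to 400.1) (-1.19, SE 0.24, adjusted *P* = 0.00413), both without overlap. Of 23 atrophy and nutrient sensing genes, 3 were higher (13.04%, against 6.49% of all genes tested) and 15 were not called (median -0.088). The other 5 were lower (21.7%, against 7.12%), *Mstn* among them. The fit of 34 gastrocnemius libraries called 0 higher and 2 lower. *Map1lc3a*, an autophagosome gene, fell from a median of 2258 (range 1834 to 2366) to 1566 (range 1393 to 1781) normalized counts (-0.49, SE 0.071, adjusted *P* = 0.000426). The stress-response gene *Sesn1* was higher (0.63, adjusted *P* = 0.0116).

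Of 12 p53 target and senescence genes measured, 5 were higher (41.7%) and 1 lower (8.33%), with a median of 0.26. *Cdkn1a*, which encodes the cell cycle inhibitor p21, rose from a median of 256 (range 148 to 729) to 1889 (range 1395 to 2880.1) normalized counts (2.78, SE 0.34, adjusted *P* = 0.000124). *Trp53* itself rose from a median of 207 (range 182 to 271) to 326 (range 298 to 377) (0.65, SE 0.11, adjusted *P* = 0.00112) and *Bbc3*, the gene of the apoptosis factor PUMA, from a median of 17.4 (range 12.6 to 30.8) to 46.2 (range 40.6 to 81.6) (1.38, SE 0.24, adjusted *P* = 0.00181). The groups did not overlap in these 3 genes. *Eda2r*, a receptor gene of this list, was higher (0.82, adjusted *P* = 0.0127), while *Phlda3*, another p53 target, fell from a median of 4134 (range 3472 to 5119) to 2423 (range 1331 to 2974) (-0.95, SE 0.16, adjusted *P* = 0.00117). *Cdkn2a* and *Gdf15* lay below the filter.

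Of 19 genes for denervation and the neuromuscular junction, 4 were higher (21.1%; 4 to 6 with 1 library left out) and 1 lower (5.26%), with a median of 0.27. The lower one was lost without WT replicate 2, 3, 4, 5, or 6 or KO replicate 2, 3, 5, or 7. *Chrna1* and *Chrnb1*, subunit genes of the acetylcholine receptor, rose from a median of 195 (range 172 to 244) to 505 (range 386 to 603) normalized counts (1.32, SE 0.12, adjusted *P* = 8.73e-06) and from a median of 495 (range 424 to 625) to 1079.7 (range 901 to 1259.6) (1.09, SE 0.11, adjusted *P* = 2.1e-05), with no overlap in either. *Gadd45a*, a gene that rises in denervated muscle, was higher (0.93), and so was *Colq*, the collagen tail of acetylcholinesterase (0.54). Of 22 myogenic regulator and TEAD cofactor genes, 5 were higher (22.7%) and 1 lower (4.55%), with a median of -0.091. With 1 library left out, 1 to 4 were higher and 0 to 3 lower. Among those higher, *Tead4*, a transcription factor gene of muscle differentiation, rose from a median of 229 (range 199.7 to 291) to 708 (range 526 to 726) normalized counts (1.43, SE 0.12, adjusted *P* = 4.67e-06). Of 19 imprinted genes measured, 6 were higher (31.6%) and 2 lower (10.5%), with a median of 0.51. Leaving out 1 library gave 5 to 8 higher, with 0 or 1 lower unless that library was KO replicate 3 or 6. The maternally expressed RNAs *H19* (1.23, adjusted *P* = 0.000821) and *Rian* (1.4, adjusted *P* = 0.00229) were higher, as were *Grb10*, named above, and *Cdkn1c*, a growth inhibitor gene (0.60, adjusted *P* = 0.00683).

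Of 22 collagen and matrix genes, 2 were higher and 1 lower (median 0.082), so that 13.6% were called, the same share as over all genes tested. *Aebp1*, a collagen-binding protein gene, fell from a median of 1564 (range 818 to 1999) to 277 (range 188 to 294) normalized counts (-2.53, SE 0.19, adjusted *P* = 1.55e-06). The basement membrane collagens *Col4a1* (0.68, adjusted *P* = 0.0083) and *Col4a2* (0.83, adjusted *P* = 0.000158) rose. Of 18 integrin and cadherin genes, 5 were higher (27.8%) and 3 lower (16.7%). *Itga9* rose from a median of 133 (range 92.4 to 155) to 289 (range 241 to 387) normalized counts (1.25, SE 0.14, adjusted *P* = 4.44e-05), *Itga7*, the laminin receptor of muscle, was higher (0.44), and *Itga4* fell from a median of 262 (range 196 to 374) to 119 (range 94.2 to 134) (-1.2, SE 0.15, adjusted *P* = 0.000148), as did *Cdh4* (-1.57, SE 0.26, adjusted *P* = 0.00124). The number higher was 3 in 8 of the 12 fits with 1 library left out (WT replicate 2, 3, or 6 or KO replicate 1, 2, 3, 5, or 7).

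Few markers of other cell types of the muscle were called by limma. Of 8 fibroblast and fibro-adipogenic progenitor markers, 3 were called lower (37.5%), *Dcn* (-0.88), *Gsn* (-1.05), and *Dpt* (-0.76), with a list median of -0.70. None of the 3 was called without WT replicate 2 or 5 or KO replicate 1 or 2, and 1 was called without WT replicate 3 or 4 or KO replicate 7 (adjusted *P* up to 0.10). The summed normalized counts of the list were 12734 to 34665 in WT and 6200.3 to 19355 in KO muscle, which overlap. In bulk tissue, fewer cells of a type and less RNA per cell cannot be told apart, and the part of these cells in the matrix results was not tested. *Fabp4* was the 1 adipocyte marker called of 9 (0.41, adjusted *P* = 0.00556), with list sums of 5709 to 7183 in WT and 5487 to 8245 in KO muscle. Of 9 endothelial markers, 2 were called higher, among them *Cldn5* (0.85, adjusted *P* = 0.00697), while *Pecam1* was not (0.29, adjusted *P* = 0.0816), and the number ranged from 1 (without WT replicate 2, 3, 5, or 6 or KO replicate 1, 2, 3, 5, or 7) to 5 (without WT replicate 4) or 4 (without KO replicate 6). Their sums were 4643 to 7606 in WT and 6157 to 8600.1 in KO muscle. A single marker each was called among 6 of satellite cells (higher, median 0.24), 6 of smooth muscle and pericytes (higher, median -0.0068), and 5 of erythroid cells (lower, median -0.76, with all 5 below 0). All 5 erythroid markers had an unadjusted *P* under 0.05, edgeR called 3 and DESeq2 all 5 of them lower, and their sums were 939 to 2800.2 in WT and 948 to 1420.2 in KO muscle. The satellite cell marker was called by neither edgeR nor DESeq2, and the smooth muscle marker by both. The first was lost when any library other than WT replicate 2 or KO replicate 3 was left out, the next without WT replicate 2, 3, or 6 or KO replicate 1, 2, 3, or 7, and the erythroid count was 0 without WT replicate 3, 4, 5, or 6 or KO replicate 1, 2, 5, or 6, 4 without WT replicate 2, and 3 without KO replicate 3. No marker was called among 10 of Schwann cells, 10 of macrophages, 7 of MHC class II, and 6 of tendon, where 0, 2, 0, and 2 had an unadjusted *P* under 0.05. DESeq2 called 1 macrophage marker and none of the other 3 lists, edgeR called none, and limma called 1 macrophage marker without WT replicate 5 or KO replicate 7 and 1 tendon marker without WT replicate 7.

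Several of the genes with the smallest *P* values lay outside these groups. Among those lower, *Sorbs3* and *Sorbs2* encode adaptor proteins of the cytoskeleton. *Sorbs3* fell from a median of 861 (range 764 to 1179) to 198 (range 159.8 to 246) normalized counts (-2.16, SE 0.11, adjusted *P* = 1.58e-07) and *Sorbs2* from a median of 1476 (range 1058 to 1711) to 329.9 (range 279 to 395) (-2.11, SE 0.13, adjusted *P* = 3.17e-07). *Oplah*, the 5-oxoprolinase gene of the glutathione cycle, fell from a median of 809 (range 760.05 to 1013) to 298 (range 231 to 313) (-1.52, SE 0.086, adjusted *P* = 2.46e-07). *Nkain1*, an interactor of the sodium pump (-2.02), *Stab2*, a scavenger receptor gene of endothelium (-2.47), *Actr3b*, an actin-related protein gene (-3.9), *Shc2*, a signaling adaptor gene (-2.9), *Peli2*, a ubiquitin ligase gene (-1.59), *Asb10* (-0.95), and *Mr1*, an antigen-presenting molecule gene (-1.42), also fell without overlap. *Car3*, the carbonic anhydrase of slow fibers and fat, fell from a median of 31275 (range 14202 to 35000.2) to 4188 (range 2437 to 6376) normalized counts (-2.82, SE 0.25, adjusted *P* = 7.99e-06).

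Among those higher, *Knop1*, a nucleolar protein gene, rose from a median of 467 (range 450.4 to 552) to 1007 (range 939.9 to 1043) normalized counts (1.03, SE 0.058, adjusted *P* = 2.46e-07). *Camk2d*, a calcium/calmodulin-dependent kinase gene, rose from a median of 977 (range 884 to 1084) to 1999.6 (range 1769 to 2207) (1.0, SE 0.068, adjusted *P* = 8.1e-07), and *Dmpk*, the kinase gene of myotonic dystrophy, from a median of 5756 (range 5535 to 6536) to 10728 (range 9955 to 12123) (0.88, SE 0.065, adjusted *P* = 1.62e-06). The groups were separate in all 3 genes. *Rab11b* (1.02) and *Ehd4* (1.05), for endosome recycling, the proteases *Prss23* (0.79) and *Prss55* (3.24), *Fgf11* (1.65), *Wsb1* (1.46), *Ypel2* (1.2), *Gramd1b*, a sterol transfer protein gene (1.93), and *Gpc4*, a heparan sulfate proteoglycan gene (1.46), rose without overlap. *Igf2bp2*, an RNA-binding protein gene, rose from a median of 35.9 (range 16.7 to 71.5) to 371 (range 246 to 472) normalized counts (3.32, SE 0.28, adjusted *P* = 4.57e-06). *Atp1b4*, related to sodium pump β-subunits, rose from a median of 84 (range 36.3 to 93.8) to 269 (range 199 to 385) (2.03, SE 0.23, adjusted *P* = 6.3e-05).

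The largest fitted increase was that of *Unc13c*, a gene of synaptic vesicle release, which had 0 to 5.62 (median 1.66) normalized counts in WT and 52.2 to 155 (median 102) in KO muscle (5.14, SE 0.41, adjusted *P* = 3.49e-06). *Cilp*, the cartilage intermediate layer protein gene, rose from a median of 501 (range 160.5 to 961) to 3879 (range 2270.3 to 5666) (3.04, SE 0.32, adjusted *P* = 2.99e-05). *Odf3l2* fell from a median of 516 (range 288 to 711) to 6.83 (range 0 to 132) (-5.55, SE 0.87, adjusted *P* = 0.00081) and *Ces1d*, a carboxylesterase gene, from a median of 232 (range 191 to 374) to 19 (range 1.68 to 33) (-4.12, SE 0.53, adjusted *P* = 0.000171). *Rps13-ps1*, a processed pseudogene of a ribosomal protein gene, rose from a median of 23.3 (range 6.06 to 28) to 329 (range 281 to 430.2) (4.16, SE 0.24, adjusted *P* = 2.46e-07), a value that is uncertain because its parent gene has nearly the same sequence. Genes at 0 in all 6 libraries of a genotype are given as bounds, with 3 reads over the 6 libraries as the floor. *Trim34b*, 0 in WT, was at least 44.0-fold higher in KO muscle, and *Ighg2c*, an immunoglobulin constant gene at 0 in KO, was at least 44.3-fold lower. These bounds use the mean of the other genotype. The lowest KO library of *Trim34b* had 0.473 normalized counts, near the floor of 0.344, and the lowest WT library of *Ighg2c* had 1.51. *Trim34b* was not called with ICBR alone, nor *Ighg2c* with Novogene alone.

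The genotype difference was then set side by side at the 2 sites, which share no library. The ICBR libraries alone, 3 against 3, gave 944 called genes of 14690 tested (6.43%), and the Novogene libraries 473 of 16176 (2.92%). Of 934 genes called at ICBR and tested at both sites, 904 (96.8%) had the same direction at Novogene and 320 (34.3%) were also called there. Of 456 called at Novogene, 451 (98.9%) had the same direction at ICBR and 320 (70.2%) were also called. Over all 14281 genes tested at both sites, 68.1% had the same direction, and log2 fold changes correlated with *r* = 0.65, a description across genes, which are not independent replicates. A genotype by site term was called for none of 15939 genes (0.0%) by limma, with 826 genes at an unadjusted *P* under 0.05, none by edgeR, and 21 by DESeq2. *Cacna2d4* (-6.33 at ICBR and -6.33 at Novogene), *Slc2a3* (-4.58 and -4.79), and *Gatm* (3.55 and 3.37) had near-equal log2 fold changes. *Smox* (-2.18 and -0.83) and *Car3* (-2.3 and -3.34) were further apart.

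**Figure D4:**
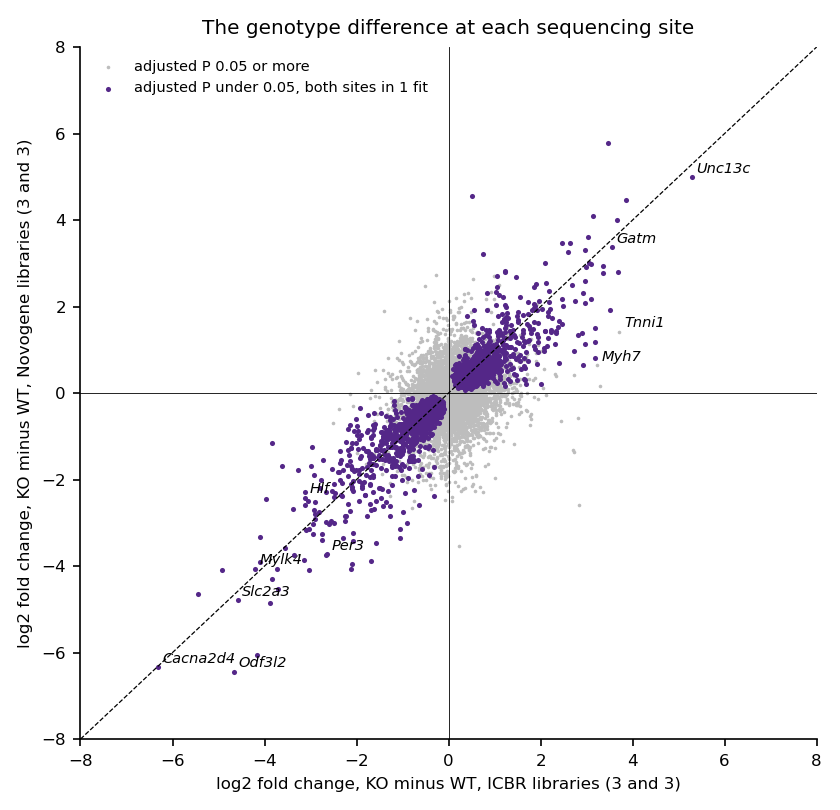
Log2 fold changes of KO minus WT from the 6 ICBR libraries (horizontal axis) and the 6 Novogene libraries (vertical axis); each point is a gene tested at both sites, purple where it was called in the fit of both sites together. The called genes follow the dashed line of equality, and *Myh7* and *Tnni1*, not called, lie below it.

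WT and KO gastrocnemius at 40 weeks, 5 libraries each, all from Novogene and none shared with the 10-week libraries, gave 2142 called genes of 16253 tested (13.2%). Of 2144 genes called at 10 weeks and tested at 40 weeks, 1950 (91.0%) had the same direction and 1020 (47.6%) were called in the same direction at 40 weeks, which is 48.9% of the 2087 genes called at 40 weeks and tested at both ages. Over all 15593 genes tested at both ages, 67.9% had the same direction. *Castor2* and *Nr5a2*, named after their values were seen, were the 2 genes called in opposite directions. *Nr5a2*, an orphan nuclear receptor gene, had 3.94 to 7.96 (median 5.72) normalized counts in WT and 10.4 to 26.9 (median 18.6) in KO muscle at 10 weeks, and 7.08 to 10.9 (median 8.77) and 0 to 5.37 (median 1.53) at 40 weeks. *Castor2*, a gene of the arginine sensor family, was higher at 10 weeks (0.31), a call lost without WT replicate 2 or 3 or KO replicate 1 or 3 (adjusted *P* up to 0.063), and lower at 40 weeks (-0.86).

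The test of the difference between ages, a genotype by age term over the 34 gastrocnemius libraries of both ages, which include KO mice given a *Bmal1* vector, called 60 of 16199 genes (0.37%). KO minus WT was higher at 10 weeks in 23 and lower in 37 of them, and 18 of the 60 were called at 10 weeks. All 40-week libraries came from Novogene. With the Novogene libraries of both ages alone, limma called none of 16271 genes, 1347 had an unadjusted *P* under 0.05, and the smallest adjusted *P* was 0.177, so the differences between ages below were not called within 1 site. Of the 60 genes, 59 were tested there, and all 59 had the same sign and an unadjusted *P* under 0.05. The Novogene libraries are among the 34 that chose the 60 genes, so this likeness is built in and is no separate check. *Mylk4* was lower at both ages, at -4.14 on the log2 scale at 10 weeks and -7.76 at 40 weeks (difference 3.63, SE 0.58, adjusted *P* = 0.00383). At 40 weeks it had 25750 to 40587 (median 33698) normalized counts in WT and 53.6 to 639 (median 143) in KO muscle. *Slc17a7*, a vesicular glutamate transporter gene, was higher at 10 weeks (3.13) but had a log2 fold change of -0.035 at 40 weeks (difference 3.16, adjusted *P* = 0.0286). *Map1lc3a* was lower at 10 weeks and had 0.32 at 40 weeks (difference -0.81, adjusted *P* = 0.0259). *Lep*, the gene for leptin from adipocytes, was not called at 10 weeks (0.93, adjusted *P* = 0.381) and was lower at 40 weeks (-5.82, difference 6.75, adjusted *P* = 0.00383). Of the 9 adipocyte markers, 7 had log2 fold changes below 0 at 40 weeks and *Lep* was the 1 called. Between WT and KO muscle at 40 weeks, median normalized counts were 264 and 27.5 for *Adipoq*, 230.1 and 44.6 for *Plin1*, and 257 and 41.4 for *Cidec*. Sums over the 9 markers were 5097 to 8691 in WT and 6801 to 16757 in KO muscle at that age. Most of each sum came from *Plin4* (3263 to 4353 in WT and 4134 to 14888 in KO muscle) and *Fabp4* (1403 to 2584 and 1015 to 2411). The sums thus say little about the other markers, and the part of adipocytes in the *Lep* difference was not tested.

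The clock genes kept their direction where they were called at both ages. At 40 weeks the log2 fold changes were -4.67 for *Per3*, -1.97 for *Nr1d1*, -3.12 for *Nr1d2*, -3.31 for *Dbp*, -3.85 for *Hlf*, and 2.98 for *Npas2*, all called. *Cry1*, higher at 10 weeks, had 0.12 at 40 weeks and was not called (adjusted *P* = 0.648), and the difference between ages did not pass the test (adjusted *P* = 0.172). *Arntl* had 479.9 to 608 (median 573) normalized counts in WT and 308 to 1039 (median 381) in KO muscle at 40 weeks, with 1 KO library above the WT range (-0.38, adjusted *P* = 0.402). *Gatm* had 1.5 at 40 weeks (adjusted *P* = 0.0996), *Cdkn1a* 4.81, and *Sln* 6.12, and none of their differences between ages passed the test (adjusted *P* = 0.135, 0.0887, and 0.0675, respectively).

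**Figure D5:**
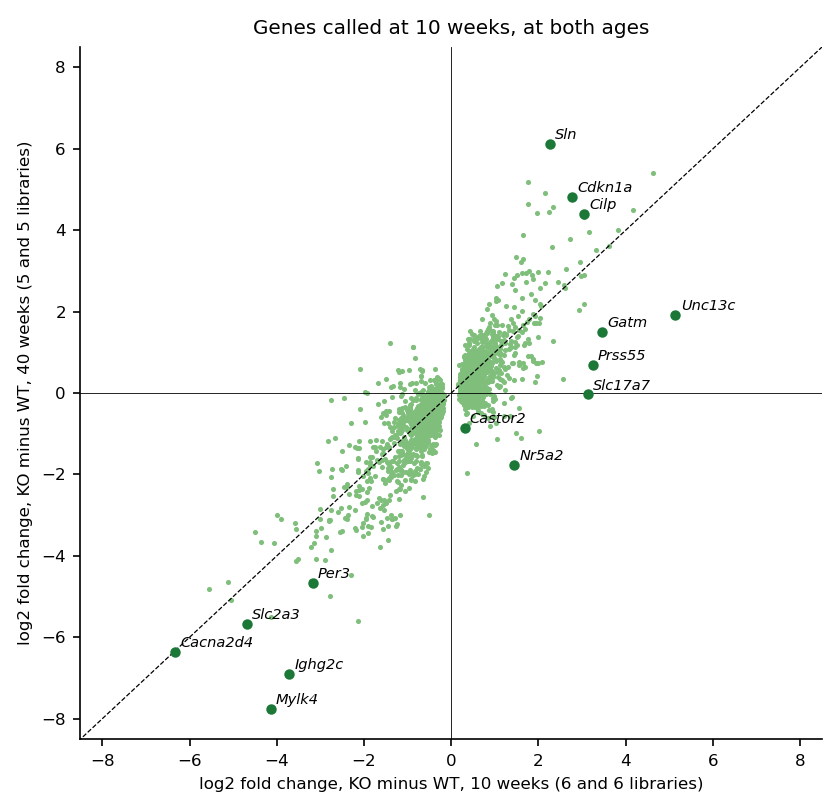
Log2 fold changes of KO minus WT at 10 weeks (6 and 6 libraries, horizontal axis) and 40 weeks (5 and 5 libraries, vertical axis) for genes called at 10 weeks and tested at both ages; the dashed line marks equal values and dark points are named genes. Of 2144 points, 1950 have the same sign at both ages, and *Nr5a2* and *Castor2* lie right of and below 0.

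Genes on either side of the targeted locus were counted as well. Within 3 Mb of *Arntl* on chromosome 7, 6 of 35 genes tested were called (17.1%), all of them among the 27 protein-coding genes, against 13.6% of all genes. *Spon1*, an extracellular matrix gene, fell from a median of 121 (range 89.9 to 219.8) to 45.1 (range 26.7 to 62.8) normalized counts (-1.59, SE 0.23, adjusted *P* = 0.000419), and *Dkk3*, a secreted protein of the Dickkopf family, from a median of 88.5 (range 76.2 to 125) to 32.2 (range 18.5 to 61.2) (-1.38, SE 0.27, adjusted *P* = 0.004), both without overlap. The proteasome gene *Psma1* was higher (0.26, adjusted *P* = 0.00765). The calls of *Mical2* (-0.80, lower), *Pde3b* (-0.73, lower), and *Copb1* (0.21, higher) had adjusted *P* values of 0.034 to 0.048 and were lost when any of 8 to 10 of the 12 libraries was left out (WT replicate 2, 3, or 7 or KO replicate 1, 2, or 3 for all 3 genes; adjusted *P* up to 0.11). Within 10 Mb, 32 of 154 genes tested were called (20.8%), 11 higher and 21 lower. A stretch of the chromosome that starts at 100 Mb, before *Arntl* and partly outside these 10 Mb, held 20 called of 62 tested (32.3%). Chromosome 7 as a whole held 174 of 1258 (13.8%). The cause of the higher share in that stretch was not tested.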

How the data were processed

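RNA-Seq values of gastrocnemius were taken from the table deposited by the authors. Per the labels and methods, poly(A) libraries were sequenced as paired reads, aligned with HISAT2 to GRCm38/mm10, and counted on genes with HTSeq. The deposited signal values are these counts after the authors scaled each library by its size factor from DESeq2. All values came out as whole reads (within 0.01 of a read) after multiplication by that factor, so the depth of each library was known (10076827 to 41733282 reads on genes). The annotation release and strand setting are not given in the sources used here, and coordinates come from GENCODE M21. The other tissues and a separate table of a vector control were not used here. Groups followed the labels, and 0 per-sample columns were left unmapped.

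Values were tested as log2(normalized count + 1) with limma 3.58.1 (limma-trend, R 4.3.3), genotype and site in the model, on the 12 libraries and on genes with a mean above 5. *P* values were adjusted by the Benjamini-Hochberg method over all genes tested. The reads recovered were tested with edgeR 4.0.16 (quasi-likelihood) and DESeq2 1.42.0 as alternatives, and other pseudocounts, filters, scalings, sample sets, a replicate block, and the omission of each library were tried. Scripts were tested on simulated data. Python 3.11.15 with scipy 1.17.1 gave the exact permutation tests. The 52 gene lists and the members were chosen with earlier results of these data known. Named are *Arntl*, for each list described at most 6 called members per direction by *P* value and members needed to say that they were not called, the 20 genes per direction with the smallest *P* values and the 15 with the largest changes among called genes without overlap, and genes within 3 Mb of *Arntl*. Some genes that meet this rule are not reported here.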

Additional observations from a re-analysis of the deposited data

Results flagged for a closer look

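In a group of 6 libraries, a value can stand apart from the others by a gap, relative to the group's range, over Dixon's critical value, which chance gives for about 1 in 20 groups. The rule was applied to the WT and the KO group of *Arntl* and of 174 other named genes. At that rate, chance alone would give about as many such values as are listed here. Among the named genes this was so for WT replicate 4 in *Car3* (14202 normalized counts, the others 27826 to 35000.2) and *Gpt* (487, the others 304 to 366), and for WT replicate 5 in *Gsn* (19263, the others 6979 to 10379) and *Map1lc3a* (1834, the others 2215 to 2366). WT replicate 7 stood apart in *Ces1d* (374, the others 191 to 259), *Myh7* (4943, the others 6.57 to 1819), and *Oplah* (1013, the others 760.05 to 841). KO replicate 1 stood apart in *Myh2* (97907, the others 8654 to 41430.3), *Pnpla2* (5649, the others 3549 to 4014), and *Tcap* (12729.9, the others 7094 to 8941). KO replicate 3 stood apart in *Odf3l2* (132, the others 0 to 46.1), *Sucla2* (14733, the others 13084 to 13450.4), and *Tbc1d1* (353, the others 89.8 to 182). KO replicate 2 did so in *Oplah* (231, the others 284 to 313) and KO replicate 6 in *Mical2* (2203, the others 999.8 to 1402). Leaving out that library kept the call of *Car3*, *Gpt*, *Ces1d*, *Oplah*, *Pnpla2*, *Tcap*, *Odf3l2*, *Sucla2*, *Tbc1d1*, *Map1lc3a*, and *Mical2*, and ended that of *Gsn*.

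The genotype difference itself differed between 10 and 40 weeks for 7 named genes in the limma fit of 34 libraries. KO minus WT at 10 weeks less that at 40 weeks was 3.63 (SE 0.58, adjusted *P* = 0.00383) on the log2 scale for *Mylk4*, 6.75 (SE 1.08, adjusted *P* = 0.00383) for *Lep*, 3.22 (SE 0.61, adjusted *P* = 0.0188) for *Nr5a2*, and 1.16 (SE 0.21, adjusted *P* = 0.0109) for *Castor2*. It was 3.19 (SE 0.70, adjusted *P* = 0.0286) for *Ighg2c*, 3.16 (SE 0.69, adjusted *P* = 0.0286) for *Slc17a7*, and -0.81 (SE 0.17, adjusted *P* = 0.0259) for *Map1lc3a*. *Ighg2c* was at 0 in all 6 KO libraries at 10 weeks and had a KO median of 0 at 40 weeks, so its value follows the pseudocount and the WT level and cannot be read as a change of the genotype difference with age. None of these was called in the Novogene libraries alone.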

How the results depend on the processing

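The 2170 genes called became 1296 (606 higher, 690 lower) in a fit of all 34 gastrocnemius libraries, 944 (400 higher, 544 lower) with ICBR alone, and 473 (193 higher, 280 lower) with Novogene alone, where the DEGs numbered 1589 and 1069. Other settings gave 1566 to 3070 genes, the lowest without the site term and the highest with array quality weights, and leaving out single libraries gave 1598 to 2247 (DEGs 2012 to 2517). Same-numbered libraries were not treated as paired. Correlations of deviations were 0.068 to 0.195 for same-numbered WT and KO libraries of a site and -0.228 to 0.179 for differently numbered ones. Whether same-numbered libraries belong together is not stated in the labels and was not tested. A replicate block in place of site gave 1815 genes (832 higher, 983 lower) and 2205 DEGs. The genotype by site term was called for 21 genes by DESeq2 and none by limma. The genotype by age term was called for 28 genes without a filter, 36 with a mean above 50, 39 with edgeR, 206 with DESeq2, and 0 with Novogene alone. No gene named as called reversed its direction. Of 157 named genes called besides *Arntl*, 121 stayed called under every alternative but single sites, 28 were not called with 34 libraries, 41 with ICBR alone, and 70 with Novogene alone. Single sites hold fewer libraries, and the Novogene libraries held fewer reads than the ICBR libraries; beyond that, the cause was not tested.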

Other observations

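Further gene groups were measured in the same 12 libraries. Of 23 ion channel and pump genes of the sarcolemma, 3 were higher (13.04%) and 5 lower (21.7%) in KO muscle (median log2 fold change 0.12). The shares of all genes tested were 6.49% and 7.12%. The fit of 34 gastrocnemius libraries called 2 higher and 4 lower. The inward rectifier potassium channel gene *Kcnj12* fell from 1005 to 1241 (median 1119) to 633 to 923 (median 764) normalized counts (-0.57, adjusted *P* = 0.000903), with no overlap. *Kcna7* (-0.51), a voltage-gated potassium channel gene, and *Slc8a3* (-0.72), a sodium/calcium exchanger gene, were lower with some overlap.

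Of 17 glucocorticoid-responsive genes, 1 was higher (5.88%) and 3 lower (17.6%), with a median of -0.39. The higher one was lost without WT replicate 2, 3, 4, 5, or 6 or KO replicate 1, 2, 5, or 7. *Tsc22d3*, which encodes GILZ, fell from 2346 to 5653 (median 3495) to 1418 to 2214 (median 2018) normalized counts (-0.82, adjusted *P* = 0.00838). Of 22 antioxidant genes, 2 were higher and 2 lower (18.2% called, against 13.6% of all genes tested, median -0.0015). The number higher was 1 in 8 of the 12 fits that left out 1 library (WT replicate 2, 3, 4, 5, or 6 or KO replicate 1, 2, or 7). *Gpx3*, the secreted glutathione peroxidase gene, was higher (0.91, adjusted *P* = 0.00358), and *Gclm*, a glutathione synthesis gene, was lower (-0.63, adjusted *P* = 0.00138). Of 25 heat shock genes, 3 were called (12%, against 13.6% of all genes tested), 1 higher and 2 lower. Those lower were *Hspa2* (-0.83, adjusted *P* = 0.00869) and *Hspb2* (-0.53, adjusted *P* = 0.000423, with 30.2% of its exon length shared with *Cryab* on the other strand). The number higher was 0 without WT replicate 3, 5, or 6 or KO replicate 1, 2, 3, or 7, and 5 and 3 without WT replicate 4 and KO replicate 6.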
